A study of Mus musculus with 4 samples.

Results

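Adgre1, Csf1r, Cd68, Mpeg1, Fcgr1, Mertk, Aif1, Spi1, Csf1 and Fcer1g are genes by which tissue macrophages are commonly recognised. They were followed across 4 whole-transcript arrays of mouse epididymal adipose tissue, the visceral fat pad attached to the epididymis. The 10 genes were taken by name, and all 10 were found among the 18820 genes with a probe set of their own. Each was read by 1 probe set, and all 10 were among the 11292 genes whose mean log2 intensity reached the filter used for comparisons. Aif1 only just did so, with a mean of 5.45.

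The wild type mice were C57BL/6 and the CD1d-/- (KO) mice carried a null CD1d allele crossed onto C57BL/6J for 10 to 12 generations. CD1d presents lipid antigens to natural killer T cells, and the series asks what these cells do for insulin sensitivity in lean mice. All groups ate chow up to 10 to 11 weeks of age and then a purified diet for 18 to 19 weeks, with 10 kcal% fat (low-fat) or 45 kcal% fat (high-fat). Low-fat wild type fat was hybridised to 1 array (WT-LF), high-fat wild type fat to 1 (WT-HF) and low-fat KO fat to 2 (KO-1 and KO-2), from RNA pooled over 4 to 6 mice per group. Whether the KO arrays hold different pools is not stated, so any p-value measures the spread between these 2 arrays, which may be technical. No array of high-fat KO fat was used here.

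Macrophages of adipose tissue arise from embryonic precursors and from blood monocytes, and they clear dying fat cells, take up lipid and secrete cytokines. Colony-stimulating factor 1, the product of Csf1, keeps them alive through its receptor Csf1r. The transcription factor PU.1, encoded by Spi1, switches on Csf1r and many other genes of the lineage. In obesity macrophages gather around dying adipocytes, and their number in visceral fat commonly grows. Levels below are log2 of the deposited intensity, differences are differences of those levels, and 1.5-fold corresponds to the size at which a gene was counted as higher or lower. In RNA from whole tissue, fewer macrophages and less RNA per macrophage cannot be told apart.

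The arrays differed in more than diet and genotype. Cd1d1, the disrupted gene, was at 11.80 on both wild type arrays and at 3.74 and 3.98 on KO-1 and KO-2. The adipocyte marker list (9 of 10 measured) had a nearly constant summed intensity, from 66395 to 67705 over the 4 arrays. Adipoq, the gene of the hormone adiponectin, was between 13.03 and 13.19. Not every marker was level, since 1 was 0.99 higher on WT-HF than on WT-LF and 1 was 0.97 higher on KO-2 than on KO-1. The epididymis list (9 of 10 markers measured) summed to 15272 on WT-LF against 153 on WT-HF, 264 on KO-1 and 1529 on KO-2. The KO arrays were far apart from each other, with 19.3% of tested genes at least 1.5-fold different, against 11.5% between the wild type arrays.

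Macrophage genes divided the 4 arrays into a higher and a lower pair, and the pairs did not follow genotype. WT-HF and KO-2 were the higher pair for 8 of the 10 genes, and WT-LF and KO-1 the lower pair. The pairs were named after the values were seen, and the share of all tested genes divided this way was not computed. For the same 8 genes the order from low to high was KO-1, WT-LF, KO-2, WT-HF. That order was noticed after the values were seen, and 26.3% of all tested genes had it. After each array was centred on its median, 9 of the 10 genes had it, with 13% of tested genes. The gene added was Csf1, which was only 0.002 higher on KO-2 than on WT-LF. After quantile normalization 8 of the 10 genes had it, with 19.8% of tested genes. Csf1 and Mertk were the exceptions as deposited.

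**Figure D1:**
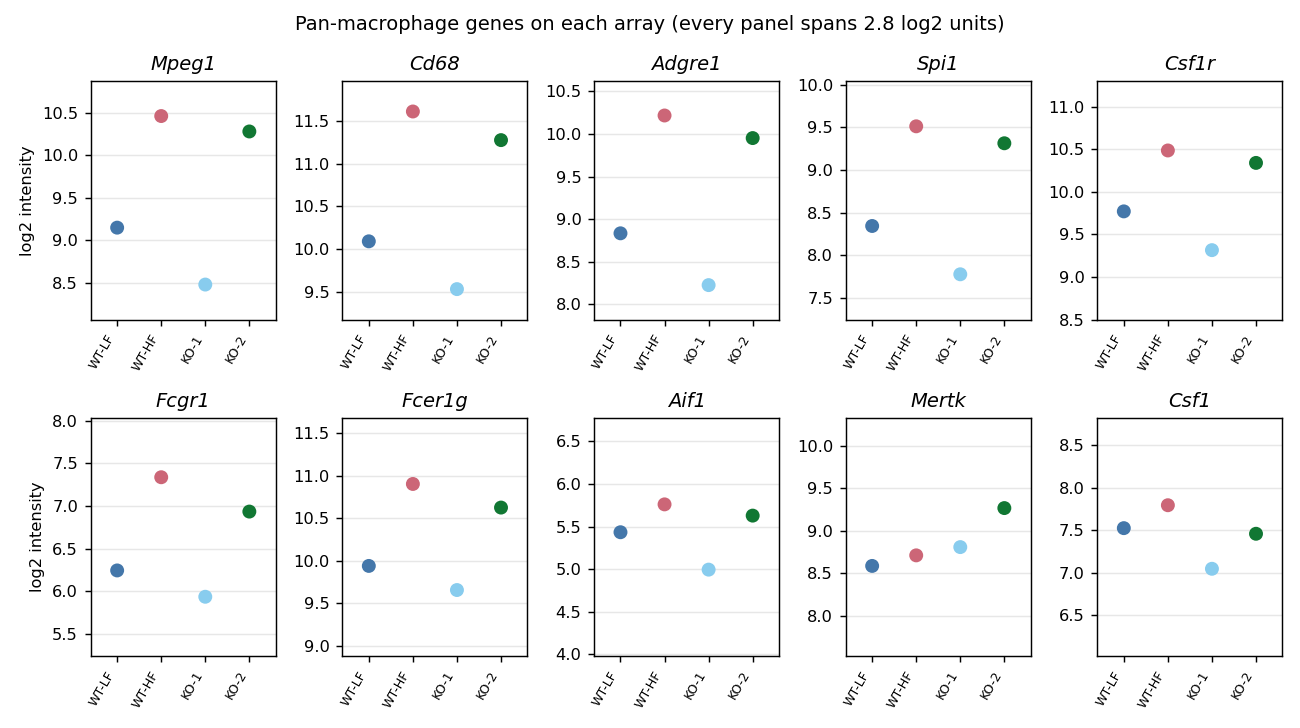
Log2 intensity of each of the 10 genes on the 4 arrays, 1 point per array, with every panel spanning the same number of log2 units. WT-HF and KO-2 lie above the other arrays for all genes but Mertk, which spans 8.59 to 9.27, and Csf1, for which KO-2 (7.46) lies just below WT-LF (7.53).

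The growth factor axis came first in the comparison. Csf1, the ligand, made by adipocytes, stromal and endothelial cells as well as macrophages, was at 7.53 on WT-LF, 7.79 on WT-HF, 7.05 on KO-1 and 7.46 on KO-2. All values lay within 0.75 of each other, and only KO-1 stood somewhat below the rest. Csf1r, the receptor tyrosine kinase on macrophages and monocytes, was at 9.77, 10.48, 9.32 and 10.34 on the same arrays in the same order. Its higher pair was above its lower pair, with a gap between WT-LF and KO-2. Spi1, the gene of PU.1, was at 8.34, 9.51, 7.78 and 9.31, a wider separation of the same form.

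Among the surface receptors, Adgre1 encodes F4/80, the adhesion receptor by which mouse macrophages are usually stained. Its levels were 8.83 on WT-LF, 10.22 on WT-HF, 8.23 on KO-1 and 9.95 on KO-2, divided into the pairs named above. Mertk, a receptor tyrosine kinase through which macrophages engulf apoptotic cells, was at 8.59, 8.71, 8.81 and 9.27. Its form was different, since both KO arrays lay above both wild type arrays and KO-2 was the highest. The differences of the KO mean from either wild type array did not pass the test described further on.

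Fcgr1, the high-affinity receptor for immunoglobulin G (CD64), was at 6.24 on WT-LF, 7.34 on WT-HF, 5.93 on KO-1 and 6.93 on KO-2. Fcer1g, the signalling chain that Fcgr1 and other Fc receptors share, was at 9.94, 10.90, 9.66 and 10.63. Receptor and chain thus had the higher and lower pair in common. The within-array difference between them stayed within 0.16 over the 4 arrays, the third smallest of the 45 pairs of the 10 genes.

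Of the proteins of phagosomes and lysosomes, Cd68, the lysosomal membrane glycoprotein macrosialin, was at 10.09 on WT-LF, 11.61 on WT-HF, 9.53 on KO-1 and 11.28 on KO-2. Mpeg1, the pore-forming protein perforin-2 that attacks engulfed bacteria, was at 9.15, 10.46, 8.48 and 10.28. These genes had the widest separation together with Adgre1, and the 3 genes kept nearly constant within-array differences. The difference between Adgre1 and Mpeg1 varied by 0.08 over the arrays and that between Adgre1 and Cd68 by 0.14, while over all 45 pairs the median was 0.81 and the highest, for Cd68 and Mertk, 2.18. Aif1, the actin-binding protein Iba1 of macrophages and microglia, was at 5.43, 5.76, 4.99 and 5.63. It lay near the 40th percentile of gene levels on every array, from 32.5 on KO-1 to 43.5 on WT-HF.

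Promoters are shown for genes with a wide separation (Cd68, Mpeg1, Fcgr1 and Fcer1g) and for the pair that did not share it (Mertk and Csf1), since PU.1 acts on promoters of this lineage and its own gene was among those with the separation. The sequences are RefSeq's, assembly GRCm38.p6, the 250 bases before each gene's start, written 5′ to 3′ on the gene's own strand. Windows were read for 7 of the 10 genes, and not for Adgre1, Csf1r and Spi1. The search left out a chromosome by rule, so a missing window does not show that RefSeq lists none. Capitals mark GAGGAA, letters that PU.1 prefers, and TGACTCA, letters of the AP-1 factors, both searched on either strand, so that TTCCTC and TGAGTCA also count. The motifs share no base in any match. The windows are chr11:69666171-69666420 (minus strand) for Cd68, chr19:12460520-12460769 (plus) for Mpeg1, chr3:96293970-96294219 (minus) for Fcgr1, chr1:171234350-171234599 (minus) for Fcer1g, chr2:128698665-128698914 (plus) for Mertk and chr3:107760470-107760719 (minus) for Csf1.
Cd68: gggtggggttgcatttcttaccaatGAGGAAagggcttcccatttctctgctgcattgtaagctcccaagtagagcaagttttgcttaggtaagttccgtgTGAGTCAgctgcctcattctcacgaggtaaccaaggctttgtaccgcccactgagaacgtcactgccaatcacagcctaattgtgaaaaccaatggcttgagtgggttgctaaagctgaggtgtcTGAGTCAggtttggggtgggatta
Mpeg1: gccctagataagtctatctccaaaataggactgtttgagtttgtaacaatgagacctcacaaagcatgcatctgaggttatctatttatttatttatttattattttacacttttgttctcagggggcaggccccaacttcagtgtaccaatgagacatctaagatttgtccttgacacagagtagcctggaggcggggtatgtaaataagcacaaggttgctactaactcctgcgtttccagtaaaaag
Fcgr1: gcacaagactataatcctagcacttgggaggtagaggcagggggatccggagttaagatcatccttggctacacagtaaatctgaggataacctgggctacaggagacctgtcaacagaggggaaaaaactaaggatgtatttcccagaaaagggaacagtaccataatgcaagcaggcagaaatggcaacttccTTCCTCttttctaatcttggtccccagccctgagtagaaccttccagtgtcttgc
Fcer1g: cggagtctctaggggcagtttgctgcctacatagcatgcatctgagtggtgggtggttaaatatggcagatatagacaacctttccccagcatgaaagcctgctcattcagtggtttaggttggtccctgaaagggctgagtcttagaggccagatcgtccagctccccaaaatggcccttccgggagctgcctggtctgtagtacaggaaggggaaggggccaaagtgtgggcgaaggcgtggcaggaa
Mertk: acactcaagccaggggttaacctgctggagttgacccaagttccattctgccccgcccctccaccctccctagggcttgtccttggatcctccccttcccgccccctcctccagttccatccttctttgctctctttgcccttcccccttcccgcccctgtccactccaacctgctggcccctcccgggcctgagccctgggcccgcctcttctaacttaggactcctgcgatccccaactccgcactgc
Csf1: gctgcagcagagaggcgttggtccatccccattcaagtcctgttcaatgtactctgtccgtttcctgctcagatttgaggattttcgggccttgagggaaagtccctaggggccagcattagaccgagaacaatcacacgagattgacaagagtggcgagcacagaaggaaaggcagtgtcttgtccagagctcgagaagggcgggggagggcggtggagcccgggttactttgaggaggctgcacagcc

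Cd68 held GAGGAA once, from 225 to 220 bases before the start, and TGACTCA on the opposite strand at 149 to 143 and at 24 to 18 bases before it. Fcgr1 held GAGGAA on the opposite strand from 55 to 50 bases before the start, and Aif1, not printed, from 7 to 2 bases before it. Mpeg1, Fcer1g, Mertk and Csf1 held neither in this window. Of 32851 promoter windows of the same length, 23.3% held GAGGAA and 4.5% held TGACTCA. The share of G and C was lowest in Mpeg1 and highest in Mertk (63.6%), beside a median of 52.4% over all windows. A match is a run of letters and was not tested as a binding site.

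The first comparison asks how these genes stood on the high-fat diet in wild type mice. Macrophage genes were higher on WT-HF. Cd68 was 2.88-fold higher, Adgre1 2.61-fold, Mpeg1 2.48-fold, Spi1 2.25-fold, Fcgr1 2.14-fold, Fcer1g 1.95-fold and Csf1r 1.64-fold, while Aif1 (1.25-fold), Csf1 (1.20-fold) and Mertk (1.09-fold) differed by less than 1.5-fold. So 7 of the 10 genes were at least 1.5-fold higher, against 7.72% of all tested genes, and 0 were at least 1.5-fold lower (3.82% of tested genes were). Their median difference was 1.03, beside 0.05 over all tested genes. The groups have 1 array each, so these sizes have no replicate check.

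Position among all genes showed the same division. Cd68 lay at percentile 99.2 of the differences of tested genes, Adgre1 at 98.9, Mpeg1 at 98.7, Spi1 at 98.4, Fcgr1 at 98.1, Fcer1g at 97.3 and Csf1r at 95.1. Aif1 at percentile 80.0, Csf1 at 75.7 and Mertk at 59.8 lay in the bulk of genes that were level or modestly higher. Epididymal markers, high on WT-LF and near the bottom on WT-HF, moved with this comparison, and their part in it was not tested.

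The second comparison is of the KO arrays with each other, which share genotype and diet. Macrophage genes were higher on KO-2. Mpeg1 was 3.48-fold higher there than on KO-1, Cd68 3.36-fold, Adgre1 3.31-fold, Spi1 2.90-fold, Csf1r 2.03-fold, Fcgr1 2.0-fold, Fcer1g 1.96-fold and Aif1 1.55-fold, with Mertk at 1.37-fold and Csf1 at 1.33-fold. That made 8 of the 10 genes at least 1.5-fold higher, against 14.8% of all tested genes, and 0 of them lower (4.45%), with a median difference of 1.01 beside 0.14 over all tested genes. After median centring, Aif1 fell short of 1.5-fold and 7 of the 10 passed, against 10.9% of tested genes. Called genes were 76.9% higher and the rest lower over the whole array set, against 62.8% after median centring and 65.6% after quantile normalization.

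These comparisons share no array, so the sizes can be set beside each other, although all 4 arrays were normalized together. The KO pair was further apart than the wild type pair for 9 of the 10 genes and for 65.6% of tested genes, with Fcgr1 (1.09 between the diets and 1.0 between the KO arrays) the exception. Fcer1g counted among the 9 by a small margin, 0.96 against 0.97. After median centring or quantile normalization it did not, which left 8 of the 10 genes with 63.3% and 63.4% of tested genes. The order of the genes was alike, with Mpeg1, Cd68 and Adgre1 at the top and Csf1 and Mertk at the bottom of both. Across the 10 genes, which were measured on the same arrays and are not independent, Pearson's r of the differences was 0.945 and Spearman's rho 0.915, and r over all tested genes was 0.517. Over all tested genes, 680 were at least 1.5-fold higher in both comparisons, which is 78.0% of those higher on WT-HF and 40.6% of those higher on KO-2. These 680 genes are 6.02% of those tested, and 7 of the 10 macrophage genes are among them.

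**Figure D2:**
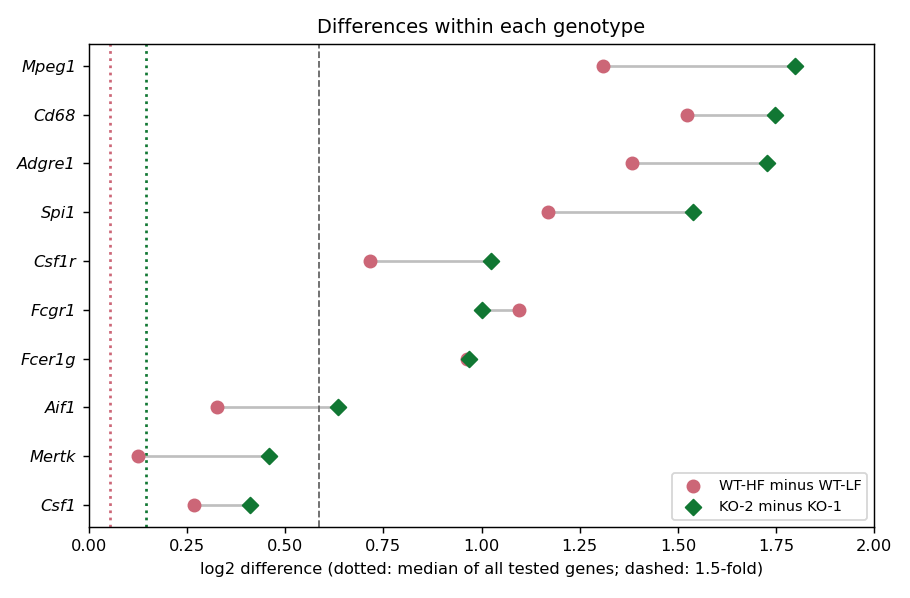
Log2 difference of each gene between the wild type arrays (circles, high-fat minus low-fat) and between the KO arrays (diamonds, KO-2 minus KO-1), 1 value per gene and pair. Cd68 reached 1.52 and 1.75 and Csf1 0.27 and 0.41, while dotted lines mark the medians of all tested genes (0.05 and 0.14) and the dashed line marks 1.5-fold.

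The third comparison is the one the genotype implies, low-fat KO fat against low-fat wild type fat. None of the 10 genes passed the threshold in limma (adjusted p = 1 for each). At an unadjusted p under 0.05 there were 0 of the 10, beside 41 genes higher and 51 lower of the 11292 tested, so a count of 0 is close to the background. Over all genes the test called 0.0443%, which is 5 genes, all lower in KO. Epididymis markers were 4 of these 5, and Cd1d1, the disrupted gene, was the other. With so few genes called, 0 of the 10 says little about them. The part of epididymis markers in the values of the 10 genes was not tested. WT-LF lay between the KO arrays for 8 of the 10 genes, against 49.7% of tested genes, above both for 1 (40.5%) and below both for 1 (9.74%). Against it, Cd68 was at −0.56 on KO-1 and 1.19 on KO-2, Adgre1 at −0.61 and 1.12, Mpeg1 at −0.67 and 1.13, and Spi1 at −0.57 and 0.97. The KO arrays therefore pointed in opposite directions.

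Means over the KO arrays were close to WT-LF and their intervals wide. For Cd68 the KO mean was 10.40 ± 1.24 (SD, n = 2), and the difference of 0.31 had a 95% interval from −1.45 to 2.08 in limma. For Adgre1 the KO mean was 9.09 ± 1.22 (SD, n = 2), and the difference of 0.26 had an interval from −1.49 to 2.0. For Csf1r the difference was 0.06, from −1.15 to 1.26, around a KO mean of 9.83 ± 0.72 (SD, n = 2). Intervals of this width leave room for changes of more than 2-fold in either direction, so they do not show that the groups were alike.

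Mertk and Csf1 were the genes for which both KO arrays lay on one side of WT-LF. Mertk was 0.22 higher on KO-1 and 0.68 higher on KO-2, with a mean difference of 0.45 and an interval from −0.42 to 1.32 in limma. Csf1 was 0.48 lower on KO-1 and 0.07 lower on KO-2 (0.002 higher on KO-2 after median centring), with a mean difference of −0.27 and an interval from −1.12 to 0.58. By size, 0 of the 10 genes were at least 1.5-fold higher on both KO arrays (0.584% of tested genes were) and 0 at least 1.5-fold lower on both (0.77%). KO-1 alone had 2 genes at least 1.5-fold lower, Adgre1 and Mpeg1, against 5.02% of tested genes, and 0 higher (1.93%). A share of 2 in 10 rested on the scaling, since 0 were lower after median centring (Adgre1 −0.45, Mpeg1 −0.51) or quantile normalization (−0.51 and −0.55). Of tested genes, 1.91% and 3.77% were lower under these scalings. KO-2 alone had 7 at least 1.5-fold higher, against 5.54%, and 0 lower (4.6%). These 7 were Adgre1, Cd68, Mpeg1, Fcgr1, Mertk, Spi1 and Fcer1g. Csf1r (0.64) joined them after median centring, against 6.93% of tested genes.

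Against wild type fat on the high-fat diet, which mixes genotype with diet, the KO mean was lower for 9 of the 10 genes. WT-HF lay above both KO arrays for these 9 (56.6% of tested genes), below both for Mertk (13.3%) and between them for 0 (30.1%). None passed in limma (adjusted p = 0.999 for each), and the test called 0.00886% of tested genes. The only gene called was Cd1d1. At an unadjusted p under 0.05 there were 0 of the 10, beside 86 genes higher and 41 lower of those tested. Cd68 differed by −1.21 with an interval from −2.97 to 0.55, and Fcgr1 by −0.90 with an interval from −2.09 to 0.28. KO-1 was at least 1.5-fold lower for 9 of the 10 genes, against 20.3% of tested genes, and higher for 0 (4.56%), with Cd68 at 4.24-fold and Adgre1 at 3.98-fold lower. After median centring 7 were, without Aif1 (−0.56) and Csf1 (−0.54), against 10.9% of tested genes. With the values as deposited, KO-2 was within 1.5-fold of WT-HF for all 10 genes, while 2.88% of tested genes were not. Its differences ran from −0.40 for Fcgr1 to 0.56 for Mertk. Mertk was past 1.5-fold after median centring (0.67) and after quantile normalization (0.61). Of tested genes, 2.05% and 1.6% were that much higher under these scalings. On both KO arrays together, 0 of the 10 were at least 1.5-fold higher (0.948% of tested genes) and 0 lower (0.788%). Comparisons with WT-HF and WT-LF share the KO arrays and are not independent of each other.

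**Figure D3:**
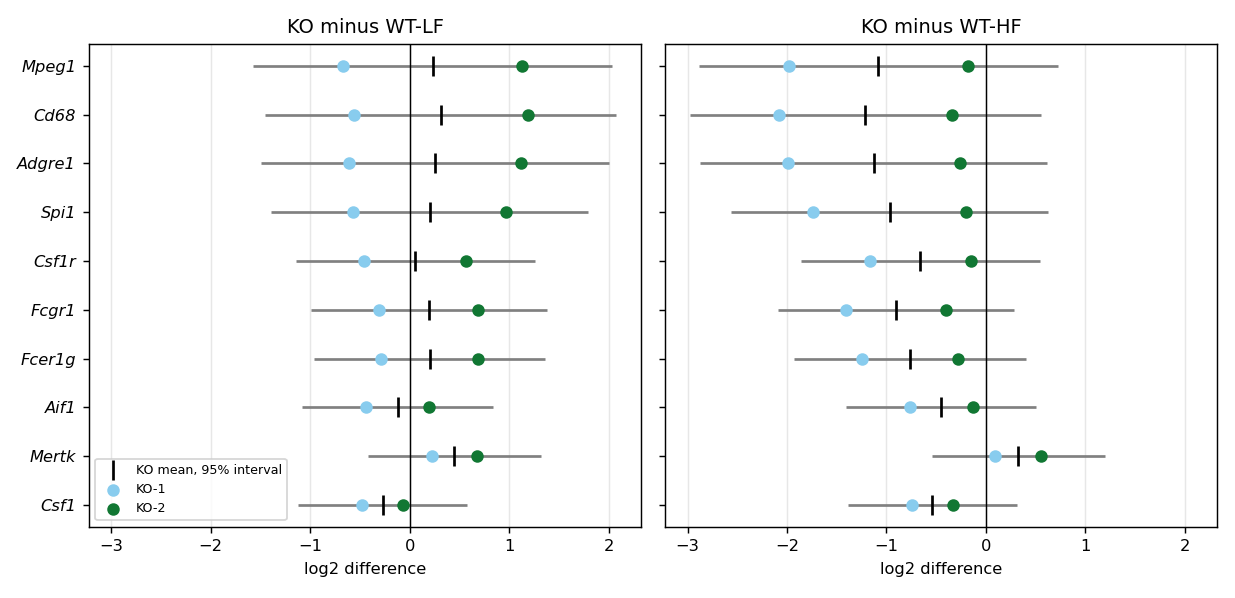
Log2 difference of KO-1 and KO-2 (points) from WT-LF (left) and WT-HF (right), with the KO mean (tick) and its 95% interval from limma (line). In the left panel the arrays lie on opposite sides of 0 for 8 of the 10 genes, and every interval in both panels includes 0.

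The partners of the 10 genes were described from lists of their pathways. Beside the list counts here and below, 7.72% of all tested genes were at least 1.5-fold higher on WT-HF and 3.82% lower. Between the KO arrays, 14.8% were higher on KO-2 and 4.45% lower. In the colony-stimulating factor axis without Csf1 and Csf1r, 2 of 7 tested genes were at least 1.5-fold higher on WT-HF. On KO-2 it was 1 of 7, which is near the share of all tested genes. Il34, which encodes the other ligand of Csf1r, was at 7.66 and 7.25 on WT-LF and WT-HF and at 7.60 and 7.12 on KO-1 and KO-2. It ran against its receptor, lower on the arrays where Csf1r was higher. Csf2ra, a receptor subunit for granulocyte-macrophage colony-stimulating factor, was at 8.67, 9.52, 8.40 and 9.16, the form of the macrophage genes. Kit, the stem cell factor receptor closest in kind to Csf1r, was level at 6.49, 6.48, 6.79 and 6.55.

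Beside Spi1, 17 other myeloid transcription factors were tested, of which 3 were at least 1.5-fold higher and 1 lower on WT-HF, and 5 higher and 1 lower on KO-2 than on KO-1. Irf8, a partner of PU.1 in myeloid cells, was at 7.68 on WT-LF, 8.62 on WT-HF, 7.30 on KO-1 and 8.42 on KO-2. Runx1, a regulator of blood cell formation, was at 7.81, 8.51, 7.23 and 8.21. Both had the same higher pair as Spi1. Irf4 was at 7.43, 6.80, 7.31 and 6.65, lower on that pair. Cebpa, which adipocytes also express strongly, was nearly level at 11.10, 10.89, 11.16 and 10.87. It was 1.16-fold lower on WT-HF than on WT-LF and 1.22-fold lower on KO-2 than on KO-1.

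Among Fc receptors and their signalling partners without Fcgr1 and Fcer1g, 4 of 10 tested genes were at least 1.5-fold higher on WT-HF and 6 of 10 on KO-2, with 0 lower in either. Fcgr4, another activating receptor that needs Fcer1g, was at 5.44 on WT-LF, 6.80 on WT-HF, 4.96 on KO-1 and 6.24 on KO-2. The inhibitory receptor gene Fcgr2b was at 9.20, 9.51, 8.98 and 9.73. Tyrobp, the adaptor DAP12, which signals much like Fcer1g, was at 9.99, 11.00, 9.95 and 10.83, while Hcst, the adaptor DAP10, was level at 6.12, 5.90, 5.87 and 5.84. Fcer1a, the mast cell partner of Fcer1g, was at 3.89 to 4.18 and below the filter.

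Of 16 tested efferocytosis genes other than Mertk, 5 were at least 1.5-fold higher and 1 lower on WT-HF, and 7 higher and 0 lower on KO-2. Axl, the sister receptor of Mertk, was at 10.15 on WT-LF, 10.64 on WT-HF, 9.65 on KO-1 and 10.29 on KO-2. Unlike Mertk, it was lowest on KO-1. Gas6, a ligand of both receptors, was at 10.04, 10.06, 9.96 and 10.46, highest on KO-2 as Mertk was. Mfge8, a bridging protein between dying cells and phagocytes, was at 11.46, 12.52, 11.35 and 12.42, and Timd4, a phosphatidylserine receptor of resident macrophages, at 6.89, 6.50, 6.25 and 6.17.

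The adhesion receptors nearest to Adgre1 were less far apart. Adgre4 was at 6.26 on WT-LF, 6.73 on WT-HF, 5.94 on KO-1 and 6.45 on KO-2, and Adgre5 (CD97), which many leukocytes carry, at 9.96, 10.18, 9.71 and 10.09. In the lysosomal list without Cd68 and Mpeg1, 3 of 10 tested genes were at least 1.5-fold higher on WT-HF and 5 of 10 on KO-2. Lyz2, the macrophage lysozyme, was at 12.11, 12.79, 11.87 and 12.75, which is 1.60-fold higher on WT-HF and 1.83-fold higher on KO-2. Of broadly expressed lysosomal genes, Psap differed by 1.38-fold and 1.52-fold in the same comparisons, Lamp2 by 1.14-fold and 1.37-fold and Ctsd by 1.15-fold and 1.22-fold. Of 13 tested actin and motility genes other than Aif1, 7 were at least 1.5-fold higher on WT-HF and 9 on KO-2. Lcp1, the leukocyte actin-bundling protein, was at 9.62, 11.08, 8.98 and 10.66. In none of these lists did a gene pass in limma for KO against either wild type array, and 0 had an unadjusted p under 0.05.

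Other macrophage markers, all outside the group of 10, were also read. They were chosen with earlier results of these data known, so they are no independent check of the group's name. Some, such as Lyz2 and Tyrobp, are also in the pathway lists above. Of 18 such markers, all tested, 14 were at least 1.5-fold higher on WT-HF and 15 on KO-2 than on KO-1, with 0 lower, and their medians were 0.83 and 0.89. C1qb, a complement chain that tissue macrophages make, was at 10.99 on WT-LF, 12.03 on WT-HF, 10.65 on KO-1 and 11.81 on KO-2. Markers of macrophages laden with lipid were wider apart, with medians of 1.76 and 2.50 over 11 tested genes. Markers of resident macrophages had medians of 0.03 and 0.60, with 0 of 11 tested genes at least 1.5-fold different between the diets and 6 of 11 higher on KO-2 than on KO-1. Folr2, a folate receptor of resident macrophages, was at 9.95, 10.26, 9.46 and 10.16.

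Lists of other blood cells had smaller medians than the 10 genes. Medians between the diets and between the KO arrays were 0.01 and −0.10 for mast cells (6 tested), 0.01 and −0.23 for dendritic cells (6 tested), −0.31 and 0.27 for T and NK cells (6 tested), 0.08 and 0.45 for B cells (6 tested) and 0.01 and −0.30 for neutrophils (3 tested). For monocytes they were 0.10 and 0.77 over 7 genes, which did not move together. On WT-HF 2 were at least 1.5-fold higher and 1 lower, and on KO-2 5 were higher and 1 lower. The lower gene was Plac8 in both, at 3.57-fold and 8.38-fold. Summed over measured markers, neutrophil intensity (10 of 11 measured) was 343 and 356 on WT-LF and WT-HF and 534 and 492 on KO-1 and KO-2, and 0 of 5 eosinophil markers reached the filter. S100a9, a neutrophil and monocyte protein, was at 5.16, 5.18, 6.88 and 5.23, highest where the macrophage genes were lowest. Its partner S100a8 was at 5.88, 6.45, 6.66 and 7.56, highest on KO-2.

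Some lists of other cells and states also differed between the arrays. By their sums, cell cycle markers and progenitor and fibroblast markers were higher on the higher pair, WT-HF and KO-2. Mesothelial and smooth muscle markers did not follow the pairs. The cell cycle list had medians of 0.96 between the diets and 1.15 between the KO arrays (7 tested), and its 9 measured markers of 10 summed to 475 and 871 on WT-LF and WT-HF and to 358 and 738 on KO-1 and KO-2. Progenitor and fibroblast markers (8 of 9 measured) had medians of 0.36 and 0.64 and sums of 11504, 13634, 9597 and 13317. Mesothelial markers (6 of 6 measured), of the lining cells of the pad, had medians of −0.23 and 1.05 and sums of 1783, 1478, 1109 and 1593, and smooth muscle markers (8 of 8 measured) −0.18 and −0.84 with sums of 5966, 6128, 9714 and 5797. The 10 macrophage genes themselves summed to 4983, 10669, 3733 and 9191. Alas2, a gene of red cell precursors and the 1 measured of 4 blood contamination markers, ran the other way, at 8.99, 8.40, 8.29 and 7.76. The part of these other cells in the result was not tested. Endothelial markers, at medians of −0.04 and 0.00, were level in both comparisons.

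**Figure D4:**
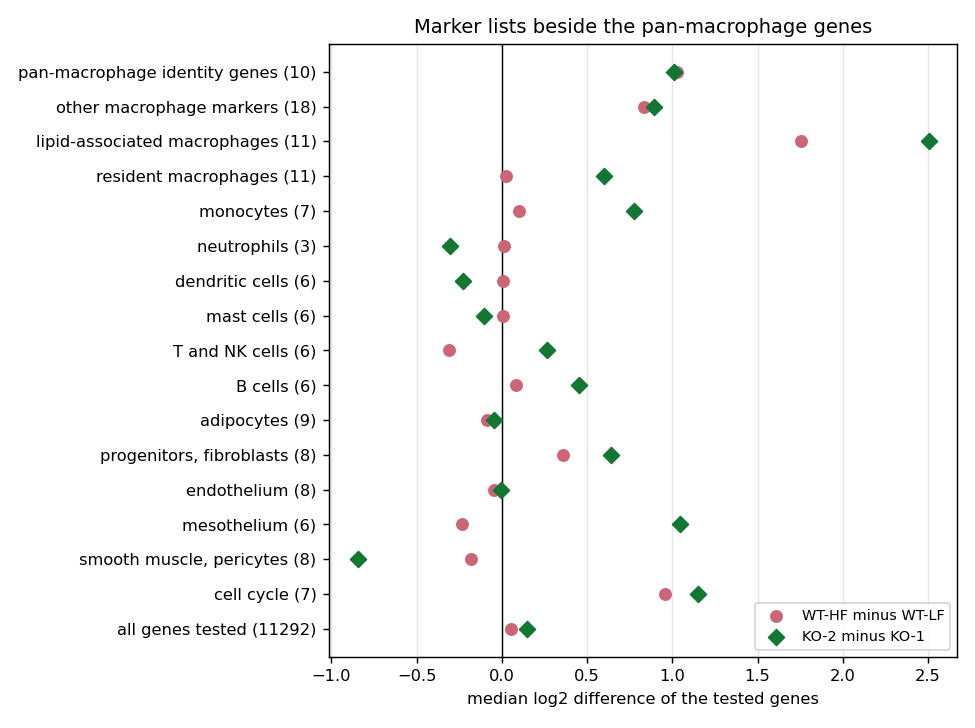
Median log2 difference of the tested genes of each marker list (number tested in brackets) between the wild type arrays (circles) and between the KO arrays (diamonds). Among the macrophage lists, the 10 pan-macrophage genes (1.03 and 1.01) lie between lipid-associated macrophage genes (1.76 and 2.50) and other macrophage markers (0.83 and 0.89). The cell cycle list (0.96 and 1.15) lies close to the 10 genes, and mesothelial markers are at −0.23 and 1.05. Adipocyte (−0.09 and −0.04) and endothelial lists lie near 0.

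Genes of like profile were looked for among all tested genes by the root mean square distance between log2 values on the 4 arrays after each gene's own mean was subtracted. Nearest to the median profile of the 9 genes other than Csf1 were Cerk (ceramide kinase), Arhgap11a, Atp6v1a (a subunit of the lysosomal proton pump), Creg1, Lpxn and Ccna2 (cyclin A2), at distances of 0.03 to 0.04. Atp6v1a was at 9.29 and 10.36 on WT-LF and WT-HF and at 9.01 and 10.11 on KO-1 and KO-2. Fcgr1 ranked 11 and Fcer1g 30 among the tested genes by this distance, Csf1r 160, Spi1 257, Adgre1 733, Mpeg1 831, Cd68 986, Aif1 1346 and Mertk 6191. These 9 genes make up the median profile, so their own ranks are a description only. Nearest to Csf1 were Abcc3, Pcgf5, Ampd2, Hdgf, Lrrc40 and Ndc1, at 0.01 to 0.02, and of the other macrophage genes Aif1 came closest at 0.10. A profile of 4 values is matched by many genes, so these names describe likeness on these arrays only.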

How the data were processed

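Gene expression in epididymal fat was measured on 4 arrays. The authors deposited 1 linear intensity per probe set and array, made by RMA, a robust multi-array summary, and R 2.15.0, both named by the submitters' processing notes. The genome build is not given in the sources used here. Here log2 was taken, with no further normalization. The platform annotation named 1 gene for 21218 of 35556 probe sets, several for 1881, and listed none for 12457. The probe set with the highest mean was kept per gene, giving 18820 genes, and those at or above the 40th percentile of mean log2 intensity, 5.45, were tested. Entrez IDs of 21185 probe sets matched the RefSeq table (GRCm38.p6), changing 0 symbols, and 0 value columns were unmapped.

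KO and wild type were compared with limma 3.58.1 in R 4.3.3 (a mean per group, eBayes, two-sided, Benjamini-Hochberg, threshold 0.05). The fit had 1 residual and 4.62 prior degrees of freedom, so the spread of each lone wild type array was taken from the KO pair and the prior. The same fit was also run on simulated data with known changes. Its pass rule on recovery covered only the largest of these, so it is no measure of power at the sizes seen here. Differences between single arrays were counted at 1.5-fold, without a test. The number of arrays limits the precision. Alternatives covered filter, probe set rule, scaling, variance model, fold and each KO array left out. The 10 genes and the lists were chosen with earlier results of these data known. The 10 genes were always named; pathway lists were named freely, other lists by up to 4 genes of highest mean level (S100a9 and Adipoq among them), and the 6 nearest profiles. Figures used matplotlib 3.10.9 in Python 3.11.15.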

Additional observations from a re-analysis of the deposited data

How the results depend on the processing

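The signs of the differences of the 10 genes and of their medians held under averaging of probe sets, median centring and quantile normalization, apart from Csf1 on KO-2 against WT-LF (−0.07, and 0.002 after median centring). Between the diets the same count of 7 genes passed 1.5-fold under all 3, and between the KO arrays 8, or 7 after median centring without Aif1. Of all tested genes, 6.64% were higher between the diets and 10.9% between the KO arrays after median centring. After quantile normalization these shares were 6.67% and 11.6%, and with probe sets averaged 7.38% and 14.4%. Counts for 1 KO array against 1 wild type array depended on scaling. KO-1 had 2 genes lower than WT-LF (5.02% of tested genes). It had 0 after median centring (1.91%), quantile normalization (3.77%) or at 2-fold. KO-2 had 7 higher than WT-LF (5.54% of tested genes), 8 after median centring (6.93%) and 3 at 2-fold. Against WT-HF, KO-1 had 9 lower (20.3% of tested genes) and 7 after median centring (10.9%). KO-2 had 0 different from WT-HF (2.88% of tested genes). It had 1 higher (Mertk) after median centring (2.05%) and 1 after quantile normalization (1.6%). At 2-fold, 5 of the 10 genes were higher on WT-HF and 6 on KO-2. The share of all tested genes past 2-fold was not computed, so the 2-fold counts have no background beside them. Over all genes, limma called 5 against WT-LF, but 0 without the low-signal filter (163 up and 119 down with unadjusted p below 0.05), 2 with the filter at the 60th percentile, 3 with the mean of all probe sets and 3 after quantile normalization. Against WT-HF it called 1, but 0 without the filter (215 up and 108 down) and 4 at the 60th percentile. Without the filter Cd1d1 itself was not called. The filter settings differed in the number of genes tested and in the prior degrees of freedom. The latter were 3.01 without the filter and 7.14 at the 60th percentile. Causes of the different counts were not tested. None of the 10 genes passed in limma under any of these settings, in which 0 also had an unadjusted p under 0.05.

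Leaving out 1 of the KO arrays turned the direction against WT-LF for 8 of the 10 genes. With 1 KO array left out no residual degree of freedom remained, so limma was not run and these are values without a test. The number of genes past 1.5-fold on the KO arrays kept then ranged from 2 (all lower) to 7 (all higher) against WT-LF, and from 0 to 9 (all lower) against WT-HF, with the same dependence on scaling. Differences from WT-LF, without KO-2 and without KO-1, were −0.61 and 1.12 for Adgre1, −0.46 and 0.57 for Csf1r, −0.56 and 1.19 for Cd68, −0.67 and 1.13 for Mpeg1, −0.31 and 0.69 for Fcgr1, −0.44 and 0.20 for Aif1, −0.57 and 0.97 for Spi1 and −0.28 and 0.69 for Fcer1g. No paired analysis was possible because only the KO group has numbered replicates. Signal limits Aif1, which lay at the filter and dropped out with Fcgr1 at the 60th percentile.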
